A study of Populus tremula x Populus alba with 64 samples.

Results

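Chaperone dnaJ 11 of the chloroplast (gene 7490642's product, dnaJ 11 below) and thioredoxin-like protein CXXS1 (gene 18095889's product, CXXS1 below) were followed through all RNA-seq libraries of a poplar experiment on auxin transport. They are 2 of the 37173 gene identifiers in the count files and were taken by identifier, with product names from the study's supplementary results for roots. Both were picked from the contrast of AE-roots with control-AE roots at 11 days, so the values of those 2 groups are given as a description without a test. The experiment used rooted cuttings of 1 hybrid clone, Populus tremula × P. alba INRA 717-1B4, whose leaves were sprayed and whose roots and stems were sequenced at 11 days or at 24 h, the 11-day plants having been sprayed repeatedly until harvest. Plants of the AE groups received an auxin enhancer, 3 µM NAA with 4.5 µM IBA, and plants of the AI groups received an auxin transport inhibitor, 100 µM NPA. Their controls, control-AE and control-AI, received the solvent, 1 N KOH, which all sprays contained. Each of the 4 sprays was sampled in 2 tissues at 2 times, which gives 16 groups and 64 libraries, and cuttings were 4 to 5 weeks old. Because all plants belong to 1 clone, the spread between libraries holds no genetic variation between trees. The labels do not say whether a root and a stem of the same number came from the same plant.

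J proteins are co-chaperones that bring unfolded client proteins to Hsp70 and start its ATP hydrolysis. DnaJ 11 is named after a small J protein of Arabidopsis that consists of little more than the J domain and resides in chloroplasts. Thioredoxins reduce disulfide bonds of other proteins through a pair of cysteines, and CXXS1 is named after an Arabidopsis protein related to cytosolic thioredoxins whose active site keeps only the first cysteine, the other being a serine. The roles given here are those known in Arabidopsis and were not measured in poplar.

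In the coordinates of the count files, which use RefSeq sequence names although the methods name a Phytozome release of the Populus trichocarpa genome, so that the build behind these coordinates is unsettled, dnaJ 11 is a single exon of 1009 bases on the minus strand of NC_037286.1, from 1229812 to 1230820. CXXS1 lies on the plus strand of NC_037285.1, from 44135330 to 44137075, and its 3 exons of 203, 123 and 351 bases add up to 677 bases. No other row of the files overlaps either gene. The nearest annotated gene is 1094 bases away from dnaJ 11 and 1528 bases away from CXXS1. The study's root results name 5 further genes as chaperone dnaJ 11 and 2 further genes as CXXS1. Whether reads that match several places were counted is not stated, so reads of these copies could have been shared.

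The authors deposited read counts per gene model, and the 50 libraries with at least 1000000 counts held from 3947526 to 21094004 counts (median 11322818). The other 14 libraries held from 93182 to 545250 counts, too few for either gene, with 0 to 9 counts of dnaJ 11 and 1 to 6 counts of CXXS1, and were left out of levels and tests. Levels are CPM, the counts per 1000000 counts of the library after TMM scaling of its total. Among 8 genes of photosynthesis, the summed level was 10.7 to 108 CPM in roots and 1020 to 2609 CPM in stems, and the tissues did not overlap in it. Root markers were not among the named genes at hand. The study calls its 11-day root samples biological replicates, and the labels do not say whether the libraries of a group came from separate plants, so p-values measure only the spread between these libraries, which may be technical in part.

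The gene dnaJ 11 was lower, and CXXS1 higher, in roots than in stems at 24 h. The level of dnaJ 11 was 2.65 to 19.2 CPM in the 11 roots (median 5.98) and 10.1 to 83.4 CPM in the 9 stems (median 14.6). Of these roots, 9 lay below every stem, and the ranges overlapped through the other 2. A complete separation of roots and stems was found in 27.9% of all rows at 24 h. Averaged over the 4 sprays, the log2 fold change of root over stem was −1.63 (SE 0.39), a level 3.10-fold lower in roots, with an adjusted p of 0.00136 in the quasi-likelihood test of edgeR. The difference had the same sign in 4 of 4 sprays. CXXS1 ran the other way, with 8.75 to 163 CPM in roots (median 49.2) and 1.75 to 38.2 CPM in stems (median 7.68), and 6 of 11 roots lay above every stem. Its log2 fold change was 2.23 (SE 0.53), a level 4.69-fold higher in roots, with an adjusted p of 0.00136. Roots were higher in 4 of 4 sprays. Both calls stand against a large background, since 68.2% of the 26056 rows tested were called in this comparison, 33.7% as higher and 34.5% as lower in roots. Two-sided exact permutation tests within sprays gave p = 0.00158 for dnaJ 11 and p = 0.00142 for CXXS1, 2 of 8 such tests that were not adjusted. In whole tissues, fewer cells of a type and less RNA per cell cannot be told apart.

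The same directions were found at 11 days in the AI arm (AI and control-AI), where 8 roots and 5 stems were available. The level of dnaJ 11 was 0.765 to 12.8 CPM in roots (median 2.16) and 9.62 to 24.3 CPM in stems (median 16.9), and 7 of 8 roots lay below every stem. Its log2 fold change was −1.88 (SE 0.58), 3.69-fold lower in roots, with an edgeR adjusted p of 0.0129. CXXS1 had 10.3 to 70.4 CPM in roots (median 32.5) and 3.52 to 25.2 CPM in stems (median 5.30), and 5 of 8 roots lay above every stem, whereas 32.4% of all rows separated the tissues completely. Its log2 fold change was 1.77 (SE 0.56), 3.41-fold higher in roots, with an edgeR adjusted p of 0.0150. Here 55.1% of 26030 rows were called, 27.4% as higher and 27.7% as lower in roots. Exact permutation tests gave p = 0.0114 for dnaJ 11 and p = 0.0267 for CXXS1. Each call at 11 days was lost when 1 particular stem library was left out. Without AI-stem replicate 3 the log2 fold change of dnaJ 11 was −1.47 with an adjusted p of 0.0882, and without AI-stem replicate 5 that of CXXS1 was 1.41 with an adjusted p of 0.0764. The 24 h calls held in each of the 20 fits that left out 1 library.

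**Figure D1:**
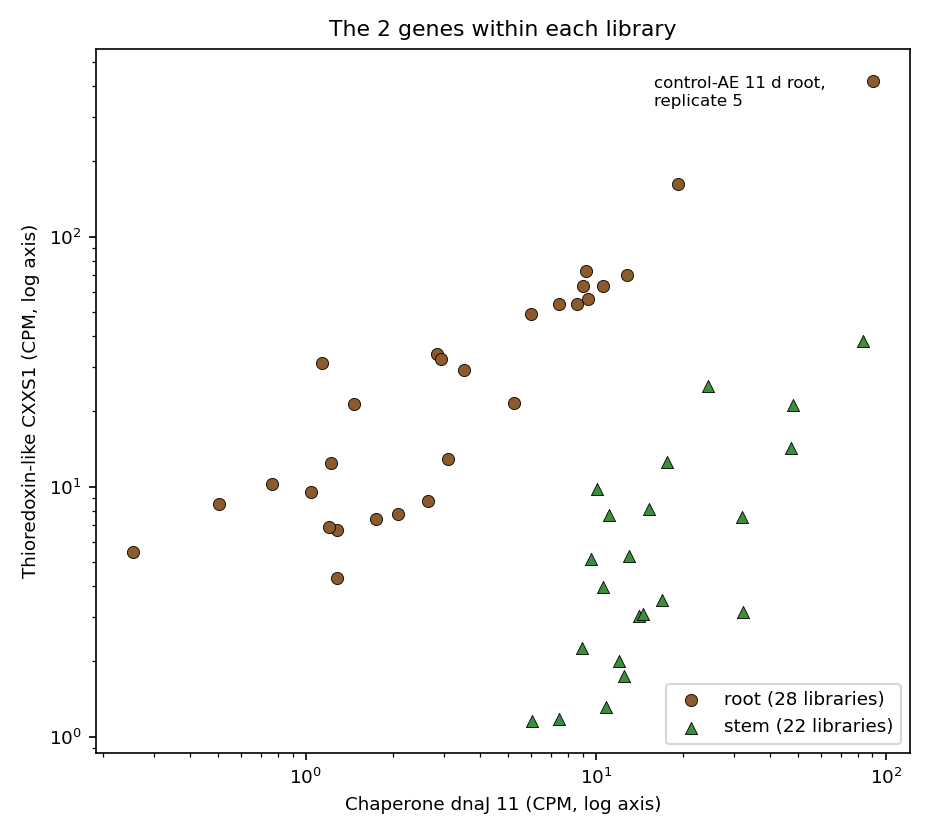
Level of CXXS1 against level of dnaJ 11, both in CPM on log axes, with 1 point for each of the 28 root libraries (circles) and 22 stem libraries (triangles). Roots and stems form bands that do not touch, the root band with more CXXS1 at any level of dnaJ 11, and control-AE 11-day root replicate 5 (90.5 CPM of dnaJ 11 and 420 CPM of CXXS1) lies at the upper end of the roots.

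The 2 genes divided the tissues most sharply when read against each other within a library, where the scaling of the library drops out. Per kilobase of exon, counts of CXXS1 were 4.93 to 40.9 times those of dnaJ 11 in the 28 roots (median 10.6) and 0.146 to 1.54 times in the 22 stems (median 0.414). All 28 roots had a higher ratio than every stem, whatever the spray or time. Neither gene alone separated the tissues in this way. Per kilobase, the median level was 2.86 CPM for dnaJ 11 and 37.6 CPM for CXXS1 in roots, and 13.4 CPM for dnaJ 11 and 6.74 CPM for CXXS1 in stems. In stems the order of the medians was reversed, and the ratio exceeded 1 in 4 of the 22 libraries. The ratio was chosen after the values were seen and is given without a test. How many other pairs of rows separate the tissues by their ratio was not counted. Single rows separated them completely in 27.9% of all rows at 24 h and in 32.4% at 11 days in the AI arm. Those are smaller sets of libraries, and the share of single rows over all 28 roots and 22 stems was not counted. The 28 roots include the 9 of the AE arm at 11 days, whose groups were used in choosing the genes.

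Within a tissue the 2 genes moved together from library to library, as the scatter of both levels shows. Over the 22 stems the correlation of log2(CPM + 0.5) was r = 0.75 (permutation p = 0.00119, adjusted 0.00119) and rho = 0.67 (permutation p = 0.00177, adjusted 0.00177). Without the 2 stems farthest from the median of dnaJ 11, r was 0.60. Over the 19 roots outside the AE and control-AE groups at 11 days, r was 0.85 (permutation p = 1e-05, the smallest that 100000 permutations can give, adjusted 2e-05) and rho was 0.88 (permutation p = 3e-05, adjusted 6e-05), and r was 0.88 without the 2 farthest roots. Values were permuted within groups, and these 2 relations were chosen after the values were seen. Both genes were picked from a contrast in which control-AE root replicate 5 was the highest library for each. How many other pairs of genes correlate as strongly within a tissue was not counted. Deviations from the group means correlated at r = 0.89 in those roots and r = 0.87 in the stems, so the relation did not rest on differences between groups. In 13 of 16 groups the same library was the highest for both genes.

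No difference between 11 days and 24 h passed the test for either gene in roots of the AI arm or in stems. Roots of the AE arm were not tested, because their 11-day groups were used in choosing the genes. In AE-roots, dnaJ 11 had 0.254 to 1.75 CPM at 11 days and 2.65 to 9.40 CPM at 24 h. CXXS1 had 4.31 to 9.53 and 8.75 to 56.3 CPM there. In control-AE roots, dnaJ 11 had 0.502 to 90.5 and 3.51 to 19.2 CPM, and CXXS1 7.75 to 420 and 29.3 to 163 CPM. Replicate 5 was the highest 11-day control-AE root for both. In roots of the AI arm, dnaJ 11 had 0.765 to 12.8 CPM at 11 days and 2.92 to 10.6 CPM at 24 h. The log2 fold change of 11 days over 24 h was −0.44 (SE 0.61, edgeR adjusted p = 0.762, exact permutation p = 0.230). CXXS1 had 10.3 to 70.4 CPM at 11 days and 12.9 to 63.3 CPM at 24 h, with a log2 fold change of −0.22 (SE 0.46, edgeR adjusted p = 0.852, exact permutation p = 0.501). Neither gene was called, while 0.207% of 24610 rows were. Stems of all 4 sprays gave a like picture. There dnaJ 11 had 6.01 to 47.0 CPM at 11 days and 10.1 to 83.4 CPM at 24 h, with a log2 fold change of −0.33 (SE 0.41, edgeR adjusted p = 0.722, exact permutation p = 0.406). CXXS1 in stems had 1.16 to 25.2 CPM at 11 days and 1.75 to 38.2 CPM at 24 h, with a log2 fold change of −0.76 (SE 0.54, edgeR adjusted p = 0.492, exact permutation p = 0.212). In stems 3.58% of 25074 rows were called, and only 2 of 4 sprays had the sign of the mean difference for either gene. The difference between root and stem itself was not called as changed between the times in the AI arm, with a log2 value of −0.79 (SE 0.79, adjusted p = 0.866) for dnaJ 11 and −0.86 (SE 0.78, adjusted p = 0.848) for CXXS1, where 0.00376% of 26590 rows were called.

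**Figure D2:**
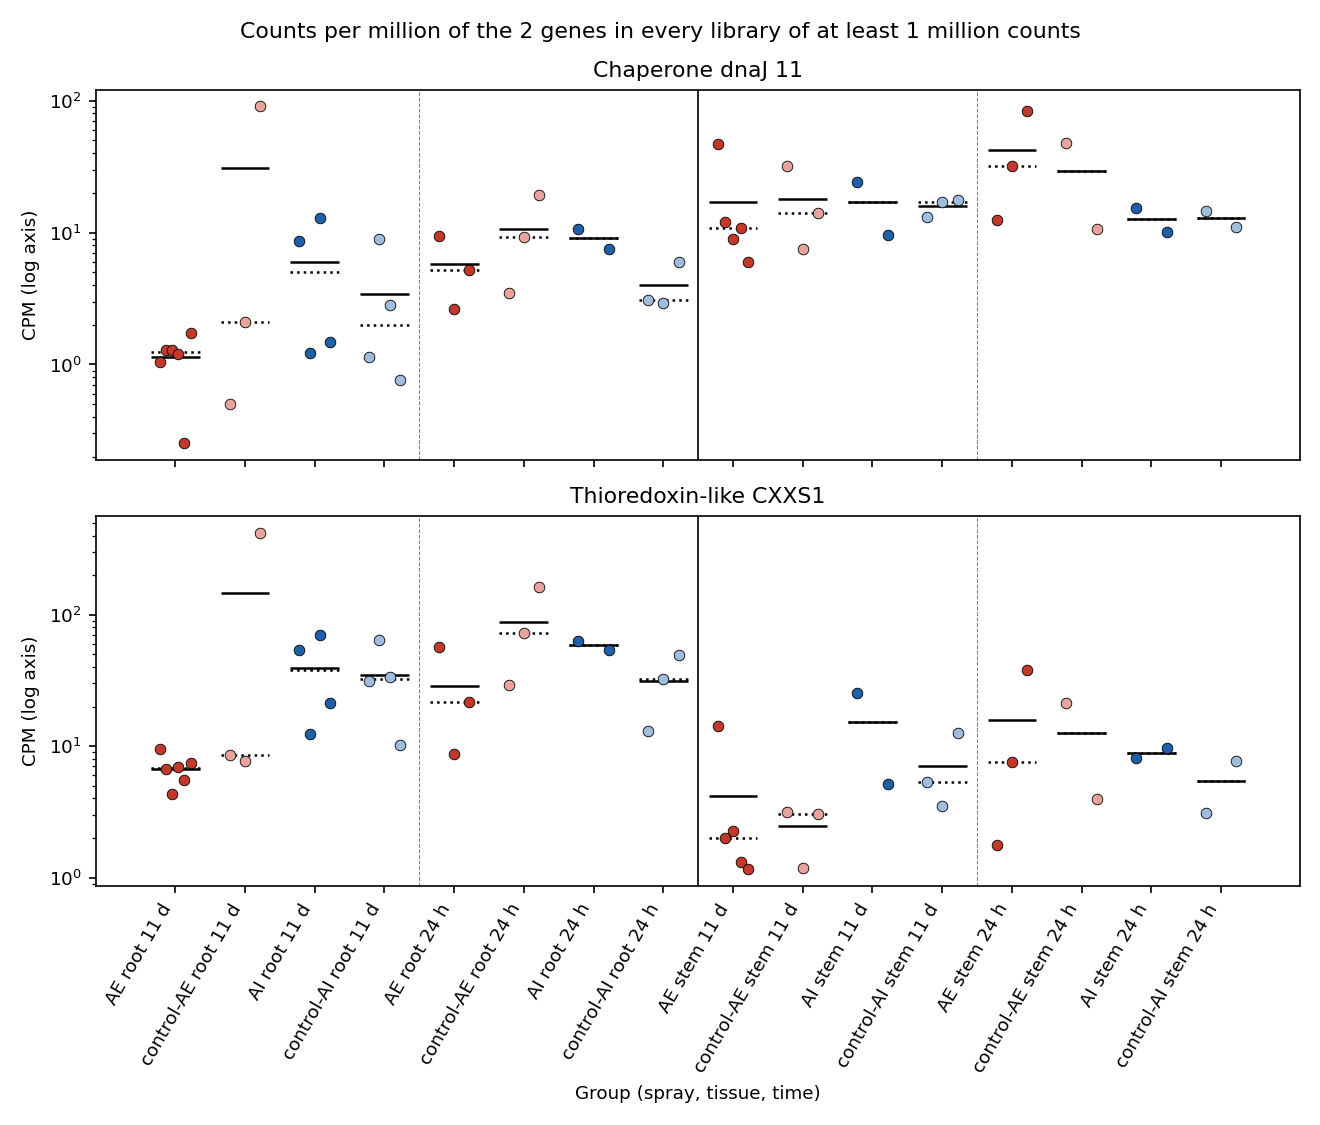
Level of dnaJ 11 (upper plot) and CXXS1 (lower plot) in CPM on a log axis, with 1 point for each library, a solid line at the group mean and a dotted line at the group median, roots left and stems right. Mean and median lie far apart where 1 library stands high, most of all in control-AE 11-day roots (means of 31.0 and 145 CPM, medians of 2.08 and 8.53 CPM).

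The contrast that chose the genes is that of the 11-day roots of the AE arm. DnaJ 11 had 0.254, 1.04, 1.20, 1.28, 1.28 and 1.75 CPM in the 6 AE-roots, and 0.502, 2.08 and 90.5 CPM in control-AE replicates 2, 4 and 5. CXXS1 had 4.31, 5.48, 6.69, 6.88, 7.39 and 9.53 CPM in the AE-roots, and 8.53, 7.75 and 420 CPM in control-AE replicates 2, 4 and 5. Replicates 2 and 4 of control-AE fell within or beside the range of the AE-roots for both genes, and replicate 5 alone stood apart. The AE-roots averaged 1.13 ± 0.49 CPM of dnaJ 11 (SD, n = 6), against 31.0 ± 51.5 CPM in control-AE roots (SD, n = 3) and 1.29 CPM in control-AE roots without replicate 5. For CXXS1 the averages were 6.71 ± 1.77 CPM in AE-roots (SD, n = 6), 145 ± 238 CPM in control-AE roots (SD, n = 3) and 8.14 CPM without replicate 5. The counts behind replicate 5 were 1794 reads of dnaJ 11 and 8329 reads of CXXS1, so counting error is small there, whereas AE replicate 5 and control-AE replicate 2 held only 5 and 4 reads of dnaJ 11.

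Control-AE root replicate 5 was 70.1 times the mean of replicates 2 and 4 for dnaJ 11 and 51.6 times for CXXS1. Over all 27674 rows kept, 2.65% were more than 5 times as high in replicate 5 as in the mean of the others, and the 2 genes ranked 177 and 195 of all rows by this ratio. Its level of dnaJ 11, 90.5 CPM, lay above those of the other roots (at most 19.2 CPM) and of the stems (at most 83.4 CPM). Its ratio of CXXS1 to dnaJ 11 per kilobase was 6.92, inside the range of the roots and above that of the stems. The 8 photosynthesis genes, none of them at 0 in any group, summed to 89.4 CPM in replicate 5 and to 16.6 and 15.2 CPM in replicates 2 and 4, while no stem was below 1020 CPM. The sum reached 108 CPM in 24 h AE-roots, so that of replicate 5 lay inside the range of the roots. Among these 8 genes, replicate 5 was from 1.84 times (gene 18099496) to 16.0 times (gene 7466740) the mean of replicates 2 and 4. Their names come from root results ordered by a contrast that holds replicate 5, so its high sum may follow in part from the choice of the genes. The part of this difference in the levels of the 2 genes was not tested.

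None of the 7 spray comparisons outside that contrast called either gene. Of all rows, edgeR called 0 in 6 of these comparisons (0%) and 3 of 23613 (0.0127%) in 11-day AI-stems, while DESeq2 called between 0 and 352. Between 343 and 2130 rows had an unadjusted p under 0.05. In 11-day AI-roots, dnaJ 11 had 8.59, 1.22, 12.8 and 1.47 CPM, against 1.14, 9.00, 2.84 and 0.765 CPM in control-AI roots (log2 fold change 0.81, SE 0.85, adjusted p = 0.985). CXXS1 had 53.9, 12.4, 70.4 and 21.5 CPM in those AI-roots, against 31.2, 63.7, 33.8 and 10.3 CPM in control-AI roots (log2 fold change 0.19, SE 0.58, adjusted p = 0.990). The groups overlapped throughout, and AI replicates 2 and 4 with control-AI replicate 2 were the high libraries for both genes.

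In 24 h roots no difference passed the test. DnaJ 11 had 9.40, 2.65 and 5.22 CPM in AE-roots, against 3.51, 9.25 and 19.2 CPM in control-AE roots (log2 fold change −0.89, SE 0.63, adjusted p = 1.00). CXXS1 had 56.3, 8.75 and 21.6 CPM in AE-roots, against 29.3, 72.7 and 163 CPM in control-AE roots (log2 fold change −1.62, SE 0.75, unadjusted p = 0.0642 and adjusted p = 1.00, edgeR). Both AE groups overlapped their controls, and control-AE replicate 3 was the highest library for both genes. Without it the log2 fold change was −0.15 for dnaJ 11 and −0.83 for CXXS1. In AI-roots dnaJ 11 had 10.6 and 7.48 CPM, against 3.09, 2.92 and 5.98 CPM in control-AI roots (log2 fold change 1.16, SE 0.34, unadjusted p = 0.0111 and adjusted p = 0.707, edgeR). CXXS1 had 63.3 and 53.7 CPM in AI-roots, against 12.9, 32.5 and 49.2 CPM in control-AI roots (log2 fold change 0.88, SE 0.44, adjusted p = 0.727, edgeR). Both AI-roots lay above the 3 control-AI roots for both genes, and these groups did not overlap in 23.4% of all rows.

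In 11-day stems, dnaJ 11 had 47.0, 12.1, 8.98, 10.9 and 6.01 CPM in AE-stems, against 32.2, 7.50 and 14.1 CPM in control-AE stems (log2 fold change −0.01, SE 0.67, adjusted p = 1.00). CXXS1 had 14.2, 2.00, 2.27, 1.32 and 1.16 CPM in AE-stems, against 3.16, 1.18 and 3.03 CPM in control-AE stems (log2 fold change 0.91, SE 0.84, adjusted p = 1.00). AE-stem replicate 1 was the highest for both genes, and without it the log2 fold change was −0.89 for dnaJ 11 and −0.46 for CXXS1. DnaJ 11 had 24.3 and 9.62 CPM in AI-stems, against 13.0, 16.9 and 17.6 CPM in control-AI stems (log2 fold change 0.11, SE 0.39, adjusted p = 0.966). CXXS1 had 25.2 and 5.15 CPM in AI-stems, against 5.30, 3.52 and 12.5 CPM in control-AI stems (log2 fold change 1.05, SE 0.71, adjusted p = 0.747). AI-stem replicate 3 was above all 3 controls and replicate 5 was not, for both genes.

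In 24 h stems, the highest levels of dnaJ 11 outside control-AE root replicate 5 were found. DnaJ 11 had 12.5, 31.9 and 83.4 CPM in AE-stems, against 48.0 and 10.6 CPM in control-AE stems (log2 fold change 0.55, SE 0.87, adjusted p = 0.999). CXXS1 had 1.75, 7.57 and 38.2 CPM in AE-stems, against 21.2 and 3.98 CPM in control-AE stems (log2 fold change 0.33, SE 1.18, adjusted p = 0.999). The groups overlapped, and each held libraries several fold apart. DnaJ 11 had 15.3 and 10.1 CPM in AI-stems, against 14.6 and 11.1 CPM in control-AI stems (log2 fold change −0.03, SE 0.25, adjusted p = 1.00). CXXS1 had 8.11 and 9.74 CPM in AI-stems, against 3.10 and 7.68 CPM in control-AI stems (log2 fold change 0.72, SE 0.41, adjusted p = 1.00). These CXXS1 groups did not overlap, which held for 27% of all rows, and without control-AI replicate 3 the log2 fold change was 1.54 with an adjusted p of 0.00316, in a fit that called 505 rows. That fit compares 2 libraries with 1, whose spread is assumed to be like that of the others.

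**Figure D3:**
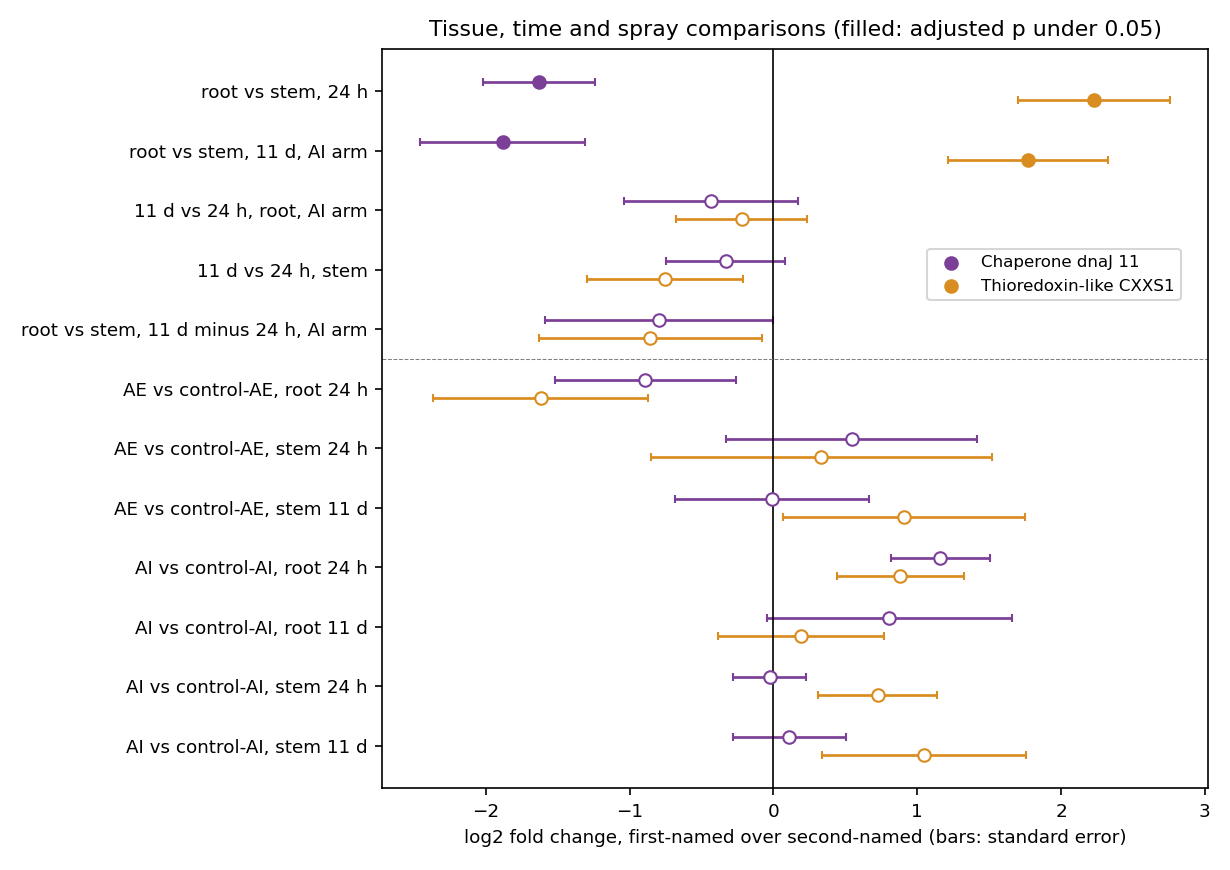
Log2 fold changes of dnaJ 11 and CXXS1 with their standard errors in the tissue, time and spray comparisons, the first-named group over the second-named, filled where the adjusted p is under 0.05. Only the 2 comparisons of root with stem are filled, with dnaJ 11 at −1.63 and −1.88 and CXXS1 at 2.23 and 1.77.

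Single libraries set many of the group means. For dnaJ 11, the highest library of a group was 1.31 to 180 times the lowest (median 4.41), and it held over 50% of the group's sum in 13 of 16 groups. For CXXS1 the highest was 1.18 to 54.2 times the lowest (median 5.11) and held over 50% of the sum in 12 of 16 groups. In groups of 2 libraries that share is always over 50%, so the 11 groups of 3 or more libraries are the better guide. Among these, leaving out the highest library moved the mean by over 1.5 times in 7 groups for dnaJ 11 and in 6 groups for CXXS1.

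The order of the groups changed with these libraries. By mean, dnaJ 11 was highest in 24 h AE-stems at 42.6 CPM (22.2 CPM without replicate 3) and next in control-AE 11-day roots at 31.0 CPM, which fell to rank 15 of 16 at 1.29 CPM without replicate 5. The mean was lowest in 11-day AE-roots, at 1.13 CPM. CXXS1 was highest by mean in control-AE 11-day roots at 145 CPM and ranked 7 at 8.14 CPM without replicate 5, and control-AE roots at 24 h came next at 88.2 CPM (51.0 CPM without replicate 3). Its lowest mean was that of 11-day control-AE stems, at 2.46 CPM. In all 15 pairs of groups next to each other in these orders, the ranges of the libraries overlapped, for each gene. Groups next to each other by mean are the likeliest to overlap, and this says nothing about groups farther apart in the orders.

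**Figure D4:**
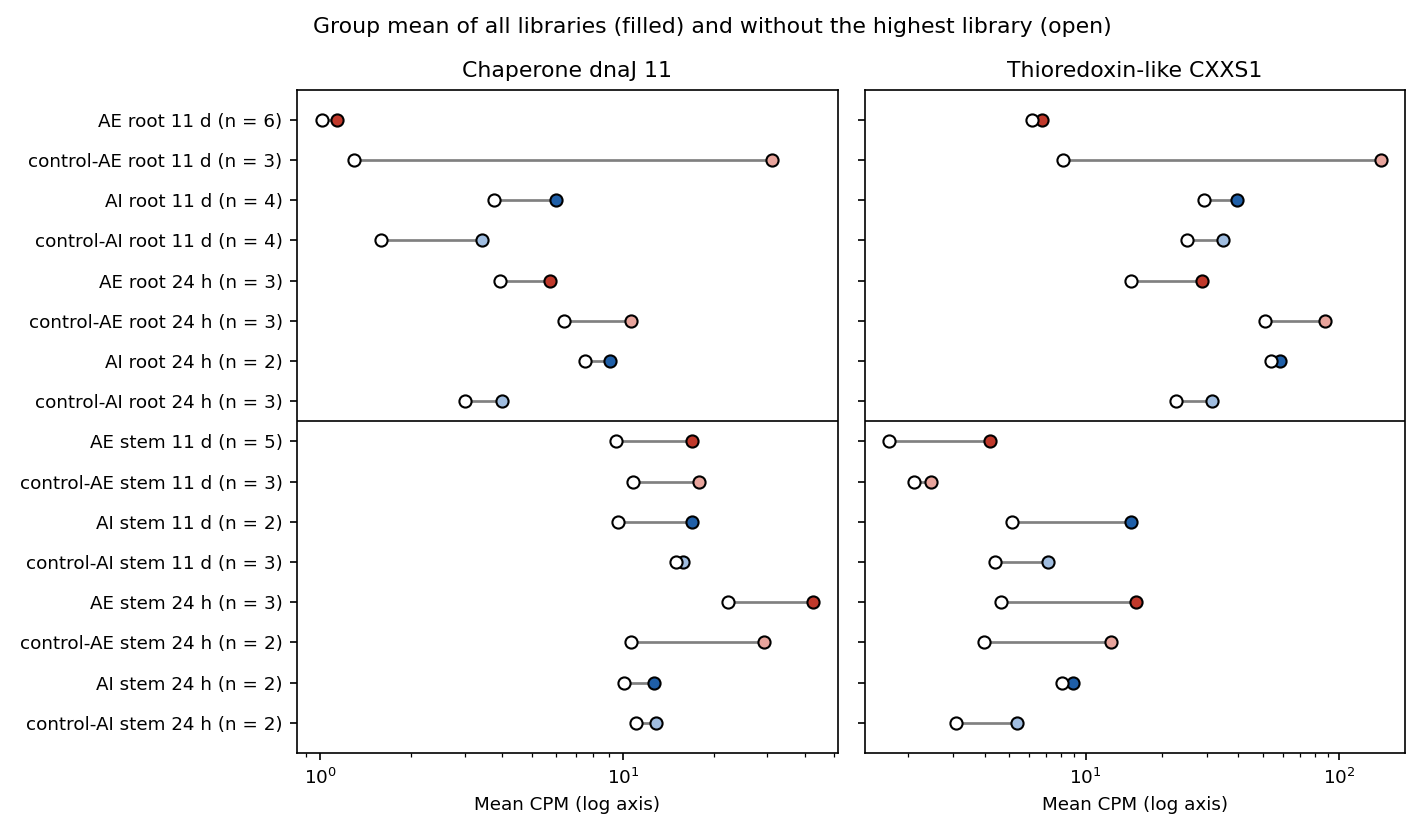
Mean CPM of each group on a log axis, over all its libraries (filled) and without its highest library (open), for dnaJ 11 (left) and CXXS1 (right), roots above and stems below. The line is longest for control-AE 11-day roots, where the mean falls to 1.29 CPM for dnaJ 11 and 8.14 CPM for CXXS1 without replicate 5, and short for 11-day AE-roots.

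Few genes in these libraries varied as much between replicates. The standard deviation of log2 levels within groups (34 degrees of freedom) was 1.28 for dnaJ 11 and 1.33 for CXXS1, against a median of 0.32 over the 27674 rows, and 0.202% of rows varied more than dnaJ 11 and 0.166% more than CXXS1. Without control-AE root replicate 5 the standard deviation was 1.00 for dnaJ 11 and 1.09 for CXXS1, with 0.542% and 0.376% of rows above these. Since the genes were chosen from a contrast that holds this library, its part in the first pair of values follows from the choice.

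The tissue pattern of dnaJ 11 was shared by several genes of the same product name. At 24 h, 3 of the 5 other dnaJ 11 genes passed the test as lower in roots and 0 as higher, where 34.5% of all rows were lower. In the AI arm at 11 days 4 of 5 were lower and 0 higher, where 27.7% of all rows were lower. Their median log2 fold change of root over stem was −0.80 at 24 h and −1.03 at 11 days, against −0.01 over all rows at each time. Gene 7472135 had the greatest difference at 24 h (log2 fold change −2.87, SE 0.46, adjusted p = 3.34e-05), with a median over all times of 1.24 CPM in the 28 roots and 10.2 CPM in the 22 stems. Gene 7453636 followed (log2 fold change −2.43, SE 0.52, adjusted p = 0.000543), with medians of 2.48 CPM in roots and 16.6 CPM in stems. Gene 7490643 lies on the same strand of NC_037286.1 as dnaJ 11 and close to it, from 1233269 to 1234067, and was also lower in roots (log2 fold change −0.80, SE 0.30, adjusted p = 0.0251). Genes 18099186 and 7493978 were not called at 24 h, with log2 fold changes of −0.30 and −0.08. The 2 other CXXS1 genes did not share one pattern. Gene 7497039, at medians over all times of 1.44 CPM in roots and 0.823 CPM in stems, was higher in roots at 24 h (log2 fold change 1.28, SE 0.34, adjusted p = 0.00354). Gene 7494320, at medians of 47.7 CPM in roots and 63.5 CPM in stems, was not called (log2 fold change −0.23, SE 0.18, adjusted p = 0.272). These names come from a portion of the study's root results ordered by the contrast of AE-roots with control-AE roots, so the families may be incomplete. The 2 genes were picked from the same contrast, so the copies named here were not chosen independently of them.

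Heat shock proteins, among them the Hsp70 chaperones that J proteins serve, were represented by 3 named genes. Of these, 1 was lower in roots at 24 h, and 2 were lower and 1 higher in roots of the AI arm at 11 days. At 24 h the share of all rows called lower was 34.5%, near that of these genes, and at 11 days 27.7% of all rows were lower and 27.4% higher. In each of the 7 spray comparisons edgeR called 0 of the 5 other dnaJ 11 genes, 0 of the other CXXS1 genes tested (2, or 1 in the 24 h stems) and 0 of the 3 heat shock genes. In control-AE root replicate 5, the heat shock 70 kDa proteins 7493237 and 18094241 stood at 26.9 and 1.31 CPM, against 48.8 and 3.01 CPM in replicate 2 and 32.7 and 1.21 CPM in replicate 4. Neither was higher in replicate 5 than in both of the others. The small heat shock protein 7483571 stood at 5.65 CPM in replicate 5, against 1.00 CPM in replicate 2 and 0.194 CPM in replicate 4. No gene named thioredoxin H was found in that portion.

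The genes most like each member in their log2 levels over the 50 libraries were different genes. For dnaJ 11 the 5 most like were an F-box/kelch-repeat protein At1g15670 (gene 7455621, Pearson r = 0.95), the uncharacterized gene 7478740 (r = 0.94), glycine-rich protein 2 (gene 7463174, r = 0.91), the dnaJ 11 gene 7453636 (r = 0.90) and F-box protein PP2-A14 (gene 7484404, r = 0.90). F-box proteins select other proteins for ubiquitination. By Spearman correlation 4 of these 5 stayed among the first 5, and all 5 did so by Pearson correlation without control-AE root replicate 5. For CXXS1 they were the uncharacterized gene 18104619 (r = 0.90), glycerol kinase (gene 18096692, r = 0.90), the light-inducible bZIP factor CPRF2 (gene 7474606, r = 0.90), a regulatory subunit beta-1 of SNF1-related kinase (gene 7467971, r = 0.88), which belongs to an energy-sensing kinase complex, and the peroxisomal long chain acyl-CoA synthetase 7 (gene 7481757, r = 0.88), which activates fatty acids for breakdown. Here 2 of 5 stayed among the first 5 by Spearman correlation and 3 of 5 without control-AE root replicate 5. These correlations pool roots and stems, whose difference enters them, and are given as a description.

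These genes stood high in control-AE root replicate 5 as well. Among the 5 genes most like dnaJ 11, replicate 5 was 2.44 to 40.7 times the mean of replicates 2 and 4, and among the 5 most like CXXS1 it was 2.51 to 31.6 times. Gene 7478740 had 351 CPM in control-AE replicate 5, 6.90 CPM in replicate 2 and 10.4 CPM in replicate 4, and gene 18104619 had 332 CPM in replicate 5, 7.27 CPM in replicate 2 and 13.7 CPM in replicate 4. Among the other dnaJ 11 genes the ratio was 2.28 to 55.3, with gene 7472135 at the upper end, and for the other CXXS1 genes it was 4.14 and 4.58. The family names come from results ordered by a contrast that holds replicate 5, and the most like genes were found over libraries that include it. Without that library, all 5 genes most like dnaJ 11 and 3 of the 5 most like CXXS1 were still found. These high values may follow in part from the choice of the genes, which was not tested, and are given as a description.

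**Figure D5:**
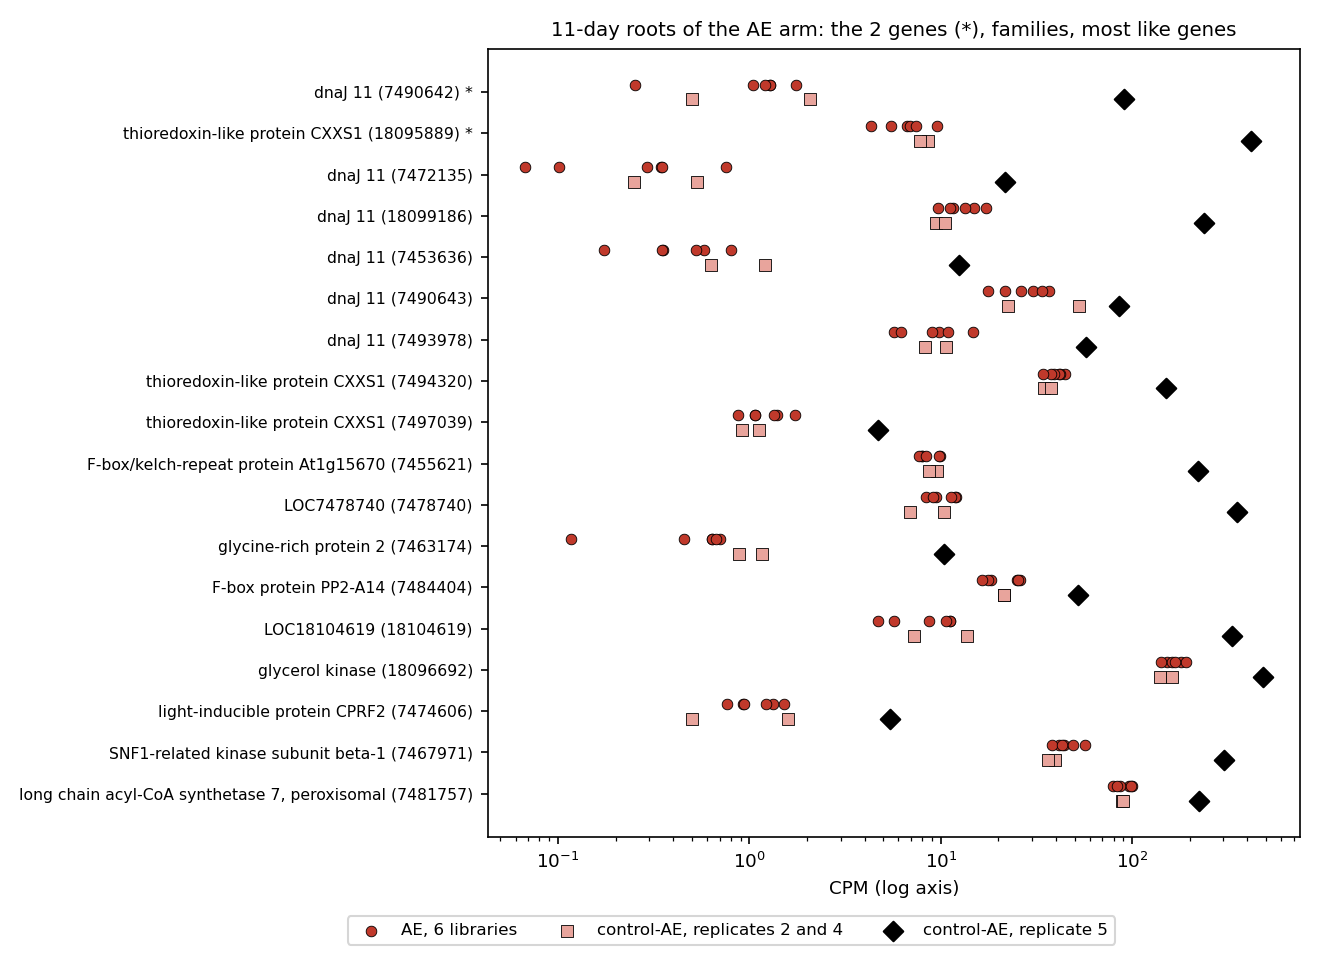
Levels in 11-day roots of the AE arm, in CPM on a log axis, for the 2 genes (asterisks), the other genes of the same product names and the genes most like them, with AE libraries as circles, control-AE replicates 2 and 4 as squares and control-AE replicate 5 as a diamond. The diamond lies to the right of all other points for every gene drawn, from 85.6 CPM for the dnaJ 11 gene 7490643, 2.28 times the mean of the squares, to 90.5 CPM for dnaJ 11, 70.1 times that mean.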

How the data were processed

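The authors sequenced polyadenylated RNA, checked reads with FastQC, aligned them by STAR against the genome of Populus trichocarpa and obtained counts for each annotated model from featureCounts of Subread; tool versions, the strand setting and the treatment of multiple matches are not given in the sources used here. The deposited values are raw read counts, 1 column for each of 64 libraries. The 2 genes and all gene lists were chosen with earlier results of these data known. Libraries under 1000000 counts were left out, which differs from the depth labels for 2 libraries. CPM were taken from TMM-scaled totals over the 50 libraries kept, and 0.5 was added before logarithms. Each comparison was fitted on all rows with edgeR 4.0.16 in R 4.3.3 (filterByExpr with minimum count 10 and minimum total 15, glmQLFit, glmQLFTest) over its own groups, with Benjamini-Hochberg adjustment at 0.05, and standard errors are the absolute log2 fold change over the root of F. Fits were tested on simulated data. The 2 groups used in choosing the genes entered no test between groups, and 11-day AE-roots entered Dixon's test of single libraries. Tissue and time were also compared by two-sided exact permutation within spray. Alternatives were DESeq2 1.42.0, median-of-ratios factors, no filter, all libraries, the replicate number as a block and each library left out. Named genes are the 2 genes, others of their product names and the 5 most correlated with each. Of the marker lists, the one for roots matched no name. Replicates were compared in 106 pairs, of which 0 were identical (lowest chi-square per degree of freedom 1.63). Tables used Python 3.11.15, pandas 2.3.3 and scipy 1.17.1. No genome, protein or promoter sequence was used here.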

Additional observations from a re-analysis of the deposited data

Results flagged for a closer look

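In 11-day AE-stems, replicate 1 stood far above the 4 other libraries for both genes, at 47.0 CPM of dnaJ 11 and 14.2 CPM of CXXS1. The gap to the next library as a share of the group's range was 0.852 for dnaJ 11 and 0.915 for CXXS1, beyond the 95% limit of Dixon's test for 5 libraries. Each gene was looked at in 4 groups of 4 or more libraries, 8 in all, among them the 11-day AE-roots that were used in choosing the genes. Chance alone sets apart about 1 in 20 where the values are normally distributed. Deviations of the 2 genes from their group means correlated at r = 0.87 in stems, so the 2 flags on this library are not independent. The test was applied to CPM, which can be skewed, and not to their logarithms. The share of AE-stem replicate 1 in the group's sum was 55.3% for dnaJ 11 and 67.9% for CXXS1.

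A library left out for its depth, AI-stem replicate 2 at 24 h, had 9 reads of dnaJ 11, which corresponds to 50.5 CPM with an exact 95% Poisson interval of 23.1 to 95.8 CPM that covers counting error only. The 2 control-AI stems of that time had at most 14.6 CPM, and the 2 AI-stems of sufficient depth had 15.3 and 10.1 CPM. This library had the highest CPM of dnaJ 11 among the 14 left out, of which 4 held 0 reads. The interval does not allow for that choice, and the same library held 2 reads of CXXS1.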

How the results depend on the processing

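Of 118 values of the 2 genes under DESeq2, median-of-ratios factors, no filter, all libraries or the replicate block, 117 kept their direction. Each of these that had a p also kept its side of the threshold. The value that changed direction was dnaJ 11 in 24 h AI-stems against control-AI stems, at 0.25 with all libraries against −0.03. DESeq2 gave no p for CXXS1 in 11-day AE-stems. The replicate number did not pair the libraries by the correlation of their deviations, no comparison had every library closest to its own number among those with 3 or more pairs, and the block changed no call of the 2 genes, with adjusted p = 0.0363 for dnaJ 11 at 24 h and 0.0452 for CXXS1 at 11 days between root and stem. It could not be fitted for 11-day AI-stems, which share 1 number with their controls.

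Leaving out 1 library in turn gave the following ranges of log2 fold changes. For root over stem at 24 h they were −1.82 to −1.26 for dnaJ 11 and 2.00 to 2.67 for CXXS1, and at 11 days −2.43 to −1.47 and 1.41 to 2.56. For 11 days over 24 h they were −0.98 to −0.22 and −0.45 to 0.020 in roots, and −0.55 to 0.032 and −1.15 to −0.32 in stems. For AE against control-AE they were −0.89 to 0.68 and −0.46 to 1.18 in 11-day stems, −0.39 to 1.98 and −1.43 to 1.96 in 24 h stems and −1.43 to −0.15 and −2.54 to −0.83 in 24 h roots, where the block gave −0.16 for dnaJ 11 and −1.02 for CXXS1. For AI against control-AI they were 0.14 to 1.89 and −0.24 to 0.65 in 11-day roots, −0.71 to 0.63 and −0.50 to 1.79 in 11-day stems, −0.34 to 0.23 and 0.20 to 1.54 in 24 h stems and 0.86 to 1.59 and 0.51 to 1.37 in 24 h roots.

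Counts of rows called moved by over 1.5 times in these cases. DESeq2 called 14 (edgeR 0) in 24 h AE-roots, 12 (0) in 11-day AE-stems, 43 (0) in 24 h AE-stems, 352 (3) in 11-day AI-stems, 588 (51) and 1627 (898) for time in roots and stems, and 14 (1) for the change of the tissue difference. Without a filter 230 rows were called in 11-day AI-stems and 160 for time in roots, with all libraries 7 and 0. The block gave 704 rows in 11-day AE-stems and 0 in both time comparisons and in the change of the tissue difference. Without 1 library the counts ranged from 0 to 4 in 24 h AI-roots, 0 to 76 in 11-day AI-stems, 0 to 22 in 24 h AE-stems, 0 to 505 in 24 h AI-stems, 0 to 568 for time in roots, 360 to 1372 for time in stems and 1 to 3 for the change of the tissue difference. The cause was not tested. Scaling without TMM moved group means by factors of 0.945 to 1.07.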
